A study of Mus musculus with 48 samples.

Results

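The replication-dependent histone genes are the clustered genes that supply histones H1, H2A, H2B, H3 and H4 for newly replicated DNA. They were taken here as every gene whose mm10-era symbol starts with Hist1h, Hist2h, Hist3h or Hist4h. Of 70 genes with such a symbol 3 were pseudogenes, which left 67 of the 54752 genes in the count tables. The 67 comprised 6 H1, 18 H2A, 18 H2B, 12 H3 and 13 H4 genes. The Hist1 cluster on chromosome 13 held 54 of them, the Hist2 cluster on chromosome 3 held 10, Hist3 on chromosome 11 held 2 and Hist4 on chromosome 6 held 1. The Hist1 genes lay in a pair of blocks, 23 genes at chr13:21715763-22043676 and 31 genes at chr13:23531050-23934851 (mm10).

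Histone genes of this kind are transcribed mainly in S phase, when DNA is copied, from a nuclear body in which the factor NPAT activates them. Their transcripts end in a stem-loop bound by SLBP and carry no poly(A) tail. H2A, H2B, H3 and H4 form the nucleosome core and H1 sits on the linker DNA between nucleosomes. Embryonic stem cells have a short G1 phase and spend much of their cycle in S phase, so that these genes are highly active in a cycling culture.

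The study measured newly made RNA in mouse embryonic stem cells by labelling with 4-thiouridine (4SU), a uridine analogue that marks RNA made during the labelling time, and counting the reads of the labelled RNA per gene. FOXD3-iKO cells, in which the pluripotency-associated transcription factor FOXD3 is lost after 4-hydroxytamoxifen (4HT), were compared with FOXD3-iKO cells given the solvent ethanol (EtOH) for 8, 14, 24 and 32 h. OCT4-tetOff cells, in which doxycycline (DOX) shuts off the pluripotency factor OCT4 (gene Pou5f1), were compared with OCT4-tetOff cells given H2O for 16 and 24 h. FOXD3-iKO cells were also arrested at the start of S phase by a double thymidine block, released at 24 h of 4HT or EtOH, and collected 0 to 5 h later. All cells grew in L2i medium, so each control carried the engineered allele of its comparison and the same medium. The labels do not give the driver of the recombinase or the number of clones. The 48 libraries formed 24 groups of 2, with 16 libraries of cycling FOXD3-iKO cells, 8 of OCT4-tetOff cells and 24 of synchronized cells. The labelling time was 30 min for cycling cells, and 15 min after synchronization. The labels number the replicates without saying whether they were separate cultures, so p-values measure only the spread between these libraries, which may be technical.

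Total counts per library were 21827951 to 30406124, 21113158 to 26112435 and 7953841 to 17936504 in the 3 tables. Gm26917 and Gm42418, which collect ribosomal RNA reads, held 3.41% to 43.05% of the counts of a library. Foxd3 ranged from 1.43 to 4.84 counts per 1000000 reads (CPM) in cycling 4HT cells, against 5.06 to 9.998 CPM in EtOH cells, and from 1.18 to 2.19 CPM in synchronized 4HT cells, against 3.89 to 8.24 CPM in EtOH cells. Pou5f1 ranged from 46.2 to 79.6 CPM in DOX cells, against 176 to 226 CPM in H2O cells. Foxd3 was also lower in that line, at 1.88 to 9.48 CPM in DOX cells, against 20.2 to 36.5 CPM in H2O cells. Summed levels of 8 embryonic stem cell markers were 2190 to 2828, 957 to 3042 and 2721 to 3593 CPM in the 3 tables. Of those 8, Sox2 was at 0 in every library, since its interval lies inside Sox2ot on the same strand. The 10 feeder fibroblast markers summed to 4.13 to 12.3 CPM.

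Histone promoters differ by class, and each class is shown here by 1 or more members because the results below are given by class. The sequences are the 130 bases before the RefSeq start site (GRCm38.p6), 5′ to 3′ on the strand of the gene. Capitals mark letters found by a search of both strands for the octamer ATTTGCAT, the CCAAT box CCAAT, the TATA box TATAAA, the H1 box AAACACA and the H4 element GGTCCG, with their reverse complements. The motifs were searched one at a time, so that matches could overlap. The H1 genes Hist1h1b (chr13:21780626-21780755 on the minus strand) and Hist1h1e (chr13:23622559-23622688 on the minus strand) carried the H1 box, the CCAAT box and the TATA box.
Hist1h1b: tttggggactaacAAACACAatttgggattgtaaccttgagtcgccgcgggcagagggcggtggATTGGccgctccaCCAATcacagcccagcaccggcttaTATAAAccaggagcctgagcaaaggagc
Hist1h1e: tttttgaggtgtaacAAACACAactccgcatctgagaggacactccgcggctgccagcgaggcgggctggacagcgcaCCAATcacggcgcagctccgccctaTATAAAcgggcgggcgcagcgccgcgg
The H2A gene Hist1h2ac (chr13:23683960-23684089 on the minus strand) and the H2B gene Hist1h2bb (chr13:23746604-23746733 on the plus strand) carried the octamer, which POU-family factors such as OCT1 and OCT4 bind.
Hist1h2ac: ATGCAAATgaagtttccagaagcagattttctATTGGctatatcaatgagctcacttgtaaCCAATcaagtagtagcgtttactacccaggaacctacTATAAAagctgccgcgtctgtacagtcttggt
Hist1h2bb: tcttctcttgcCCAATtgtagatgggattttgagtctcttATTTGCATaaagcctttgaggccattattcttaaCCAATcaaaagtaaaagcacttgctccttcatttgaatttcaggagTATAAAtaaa
The H3 gene Hist1h3e (chr13:23562386-23562515 on the minus strand) carried CCAAT boxes without the octamer.
Hist1h3e: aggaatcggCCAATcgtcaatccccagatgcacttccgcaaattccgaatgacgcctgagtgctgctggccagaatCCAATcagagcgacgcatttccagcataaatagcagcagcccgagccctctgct
The H4 genes Hist1h4d (chr13:23581438-23581567 on the plus strand), Hist1h4i (chr13:22041363-22041492 on the minus strand) and Hist4h4 (chr6:136804432-136804561 on the minus strand) carried the H4 element near the start site. Hist4h4 stands alone on chromosome 6, and Hist1h4i was among the genes with the smallest p after release.
Hist1h4d: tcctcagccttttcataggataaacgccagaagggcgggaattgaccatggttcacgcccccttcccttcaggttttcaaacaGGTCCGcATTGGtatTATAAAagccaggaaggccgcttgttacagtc
Hist1h4i: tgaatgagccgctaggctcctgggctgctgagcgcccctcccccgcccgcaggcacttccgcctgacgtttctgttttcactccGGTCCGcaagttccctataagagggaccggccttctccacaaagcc
Hist4h4: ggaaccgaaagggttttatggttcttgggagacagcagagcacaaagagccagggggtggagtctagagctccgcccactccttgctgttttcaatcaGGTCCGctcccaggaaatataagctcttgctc

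RefSeq windows of 250 bases before to 50 after the start were available for 62 of the 67 genes and for 32851 promoters in all. The octamer was in 7 of 18 H2A and 6 of 16 H2B windows and in 0 windows of the other classes, against 1.74% of all promoters. The CCAAT box was in all 6 H1, 18 H2A, 16 H2B and 10 H3 windows but in 3 of 12 H4 windows, against 37.4% of all promoters. The H4 element was in 11 of 12 H4 windows, against 8.25% of all promoters, and in 13 of the 62 histone windows in total. The H1 box was in 5 of 6 H1 windows, against 7.18% of all promoters. The TATA box was in 35 of the 62 windows, against 13.6% of all promoters. A match describes these letters only and is not a measured binding site.

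Levels are given as CPM scaled by TMM factors, and between genes as CPM per kb of the gene interval. In the 16 cycling FOXD3-iKO libraries the linker histone gene Hist1h1a (chr13:23763666-23764406) was highest at a mean of 235 CPM per kb, followed by Hist1h1b at 135 CPM per kb. The highest H4 genes were Hist1h4d at 103 and Hist1h4b at 79.7 CPM per kb. The highest H3 genes were Hist1h3g at 100.4 and Hist1h3e at 84.4 CPM per kb. The highest H2B genes were Hist1h2bb at 85.1 and Hist1h2bg at 76.5 CPM per kb, and the highest H2A genes were Hist1h2ak at 64.3 and Hist1h2ab at 41.6 CPM per kb. The members named for their expression in testis were low, at 1.55 CPM per kb for Hist1h1t, 5.75 for Hist1h2aa and 4.80 for Hist1h2ba. Intervals run from start to end with any intron inside, which lowers the value of Hist1h2be (0.273 CPM per kb over 37455 bases), Hist1h2bc (3.57 over 8710 bases) and Hist1h1d (17.7 over 7425 bases).

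**Figure D1:**
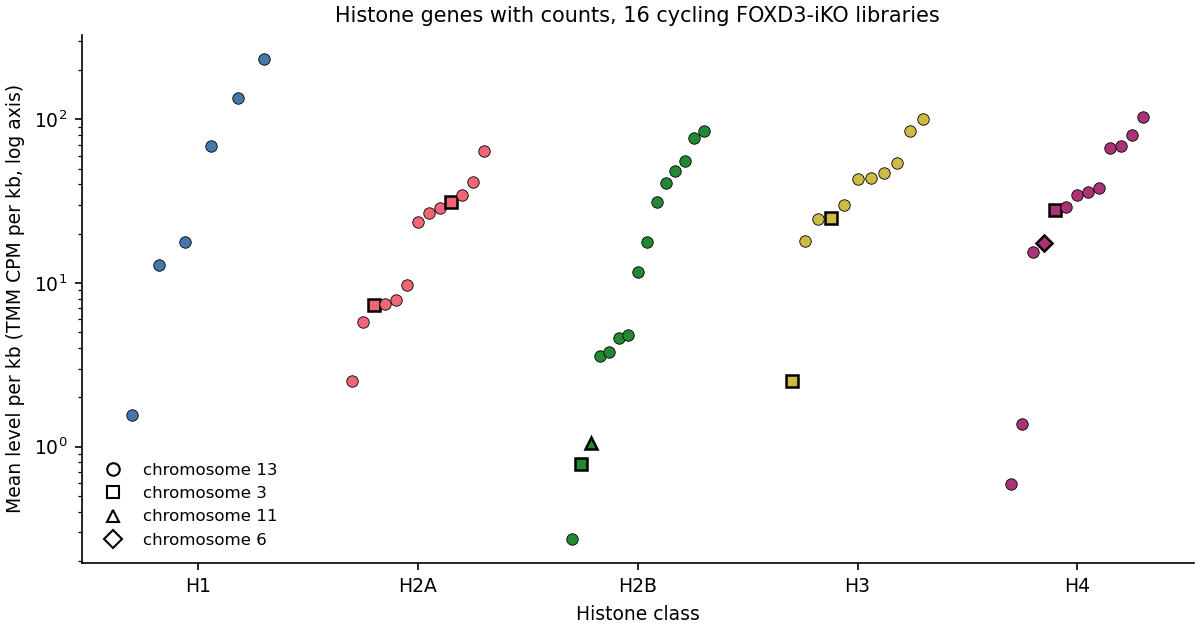
Mean level of each replication-dependent histone gene with counts in cycling FOXD3-iKO cells, in CPM per kb of the gene interval on a log scale, by class. Hist1h1a is highest at 235 CPM per kb, and the lowest drawn gene of each class lies between 0.273 and 2.52 CPM per kb. Genes with a mean of 0 are not drawn.

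The transcription of the set was unevenly shared. Over the 8 EtOH libraries of cycling cells, Hist1h1a held a median of 10.3% of the summed CPM of the 67 genes. Hist1h1d held 8.13%, Hist1h4d 6.94%, Hist1h1c 6.36% and Hist1h1b 5.98%. At the other end 8 members had no count in any cycling library, and 3 of these (Hist2h2bb, Hist2h3c1 and Hist3h2a) had none in any library. Those 3 intervals are fully covered by another counted gene on the same strand, so a count of 0 says nothing of their transcription. Near-identical copies can share reads, and how such reads were counted is not stated in the labels. Several copies with no count in cycling cells had counts in synchronized cells, so levels of single genes are compared only within a table.

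Within EtOH cells the level of some classes went with the set of libraries. The library names of the 8 and 14 h samples carry a lane number, which those of the 24 and 32 h samples lack. Of the 58 tested members 19 were higher in all 4 of the 24 and 32 h EtOH libraries than in all 4 of the 8 and 14 h EtOH libraries, and 1 was lower. Over all genes 13.1% were higher and 10.8% lower in that way. Of the 19, 14 exceeded 1.5-fold (4.79% of all genes), 7 of them H3 genes, 5 H2A genes and 2 H2B genes. Hist2h3b averaged 20.4 CPM in the 24 and 32 h libraries, against 9.59 CPM in the 8 and 14 h libraries, and Hist1h3f averaged 81.1 CPM, against 45.99 CPM. The linker histone gene Hist1h1a averaged 179 CPM, against 213 CPM, and its libraries overlapped. Culture time and library set cannot be told apart here, and the comparisons below are made within a time point.

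In cycling FOXD3-iKO cells the replication-dependent histone genes were transcribed less after 32 h of 4HT, across all 5 classes. Genes were tested with edgeR's quasi-likelihood test on counts of the whole table, and were called at an adjusted p (Benjamini-Hochberg) under 0.05. At 32 h 49 of 58 tested members were called lower and 0 higher, at a median log2 fold change of -1.14. Over all 18707 genes tested 9.47% were called in either direction and 4.59% lower. At 8 h (background 0.0107%), 14 h (0.016%) and 24 h (0.481%) no member was called. In bulk RNA, fewer cells in S phase and less transcription per cell cannot be told apart.

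The summed level of the 67 genes followed the same course. At 8 h it was 1906 and 1652 CPM in 4HT cells, against 1668 and 1684 CPM in EtOH cells. At 14 h it was 1906 and 1142 CPM in 4HT cells, against 2074 and 1555 CPM in EtOH cells. The groups overlapped at both early times. At 24 h it was 1607 and 1591 CPM in 4HT cells, against 2284 and 2205 CPM in EtOH cells. At 32 h it was 817 and 795 CPM in 4HT cells, against 1663 and 1909 CPM in EtOH cells. At 24 and 32 h both 4HT libraries lay below both EtOH libraries, with ratios of group means of 0.712 and 0.451.

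**Figure D2:**
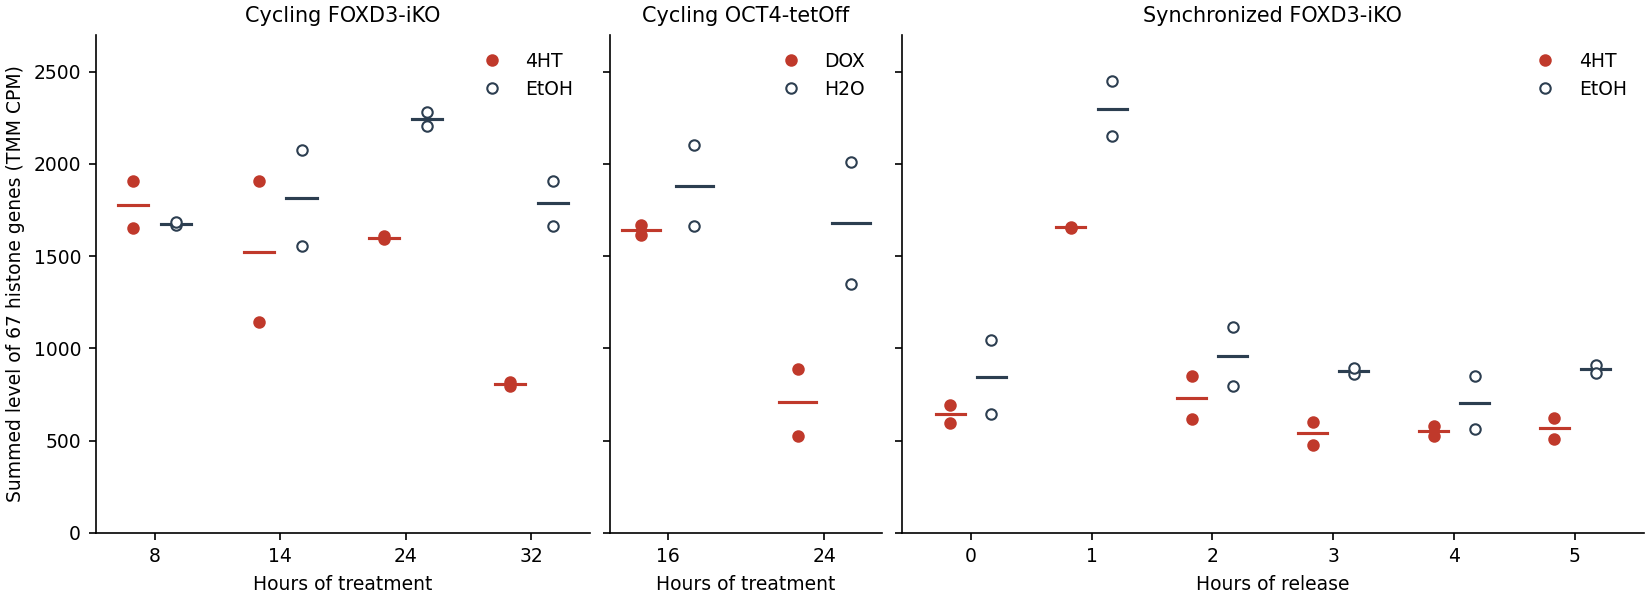
Summed TMM-scaled CPM of the 67 replication-dependent histone genes in each library (points), by treatment and time, with group means as horizontal lines. At 32 h the 4HT libraries sit at 795 and 817 CPM and the EtOH libraries at 1663 and 1909 CPM, and in synchronized cells both arms peak at 1 h after release.

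The 24 h samples showed the same direction without a call, and 28 members were called lower when the fit held the 24 h groups alone, which called 0.469% of all genes lower. Both 4HT libraries lay below both EtOH libraries for 50 of 58 tested members, and above them for 1. Over all genes 22.8% lay below in that way. The median log2 fold change was -0.48, and 31 members had an unadjusted p under 0.05, as had 1579 of all 18707 genes. At 32 h 56 members lay below and 0 above, against 27.1% of all genes below. At 14 h 7 lay below and 0 above (12.2% of all genes below), and at 8 h 1 lay below and 21 above (19.9% above). The 14 h median of -0.28 was 0.05 without the second 4HT library of that time and -0.74 without the first. The step between the times was tested too. The log2 fold change at 32 h minus that at 24 h had a median of -0.69 over the members, with 34 at an unadjusted p under 0.05 and 0 called (background 0%). Of all 18707 genes 1395 had an unadjusted p under 0.05 in that difference.

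The 5 classes fell by similar amounts at 32 h. For H1 the median log2 fold change was -1.12, and 5 of 6 members were called lower. H2A had -1.23 with 10 of 13, and H2B had -1.10 with 13 of 15. H3 had -1.17 with 10 of 11, and H4 had -1.21 with 11 of 13. By cluster, 44 of 50 Hist1 genes were called lower at a median of -1.16, as were 4 of 6 Hist2 genes at -0.95 and the single Hist4 gene. The blocks of the Hist1 cluster did not stand apart, at medians of -1.18 with 16 of 19 called and -1.15 with 28 of 31 called.

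**Figure D3:**
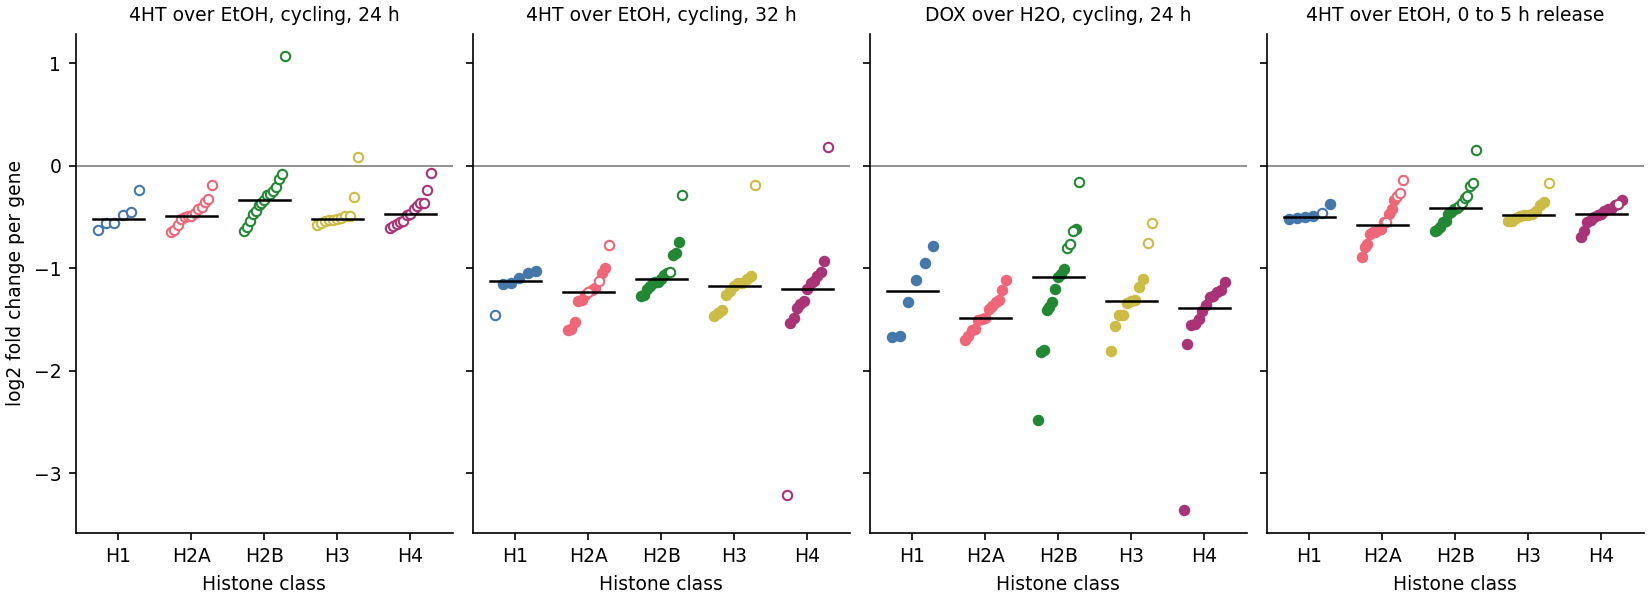
Log2 fold change of each tested replication-dependent histone gene (points, filled where called) with the class median (line), for 4HT against EtOH in cycling cells at 24 and 32 h, DOX against H2O at 24 h, and 4HT against EtOH over the release. Class medians lie between -1.23 and -1.10 at 32 h of 4HT and between -1.48 and -1.08 at 24 h of DOX.

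Among linker histones Hist1h1a had 212 and 189 CPM at 8 h, 236 and 153 at 14 h, 145 and 139.9 at 24 h, 73.5 and 69 at 32 h in 4HT cells. Hist1h1a in EtOH cells had 201 and 191 CPM at 8 h, 273 and 186 at 14 h, 205 and 193 at 24 h, 154 and 162 at 32 h. Its 4HT and EtOH libraries overlapped at 8 and 14 h and were apart at 24 and 32 h. At 32 h it was lower in 4HT cells (log2 fold change -1.15 ± 0.19, adjusted p = 0.0018, with the SE after ±). Hist1h1b had 131 and 116 CPM at 8 h, 124 and 79.7 at 14 h, 87.1 and 95.2 at 24 h, 42.6 and 41.5 at 32 h in 4HT cells. Hist1h1b in EtOH cells had 115 and 113 CPM at 8 h, 127 and 99.4 at 14 h, 133 and 117 at 24 h, 83.5 and 102 at 32 h. It was lower at 32 h by the same test (log2 fold change -1.14 ± 0.18, adjusted p = 0.0015).

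The H2A gene Hist1h2ak had 25 and 21.4 CPM at 8 h, 24.9 and 15.8 at 14 h, 29 and 26.7 at 24 h, 14.4 and 13.3 at 32 h in 4HT cells. Hist1h2ak in EtOH cells had 21.5 and 21.7 CPM at 8 h, 24.1 and 19.2 at 14 h, 40.3 and 42.7 at 24 h, 29.6 and 34.6 at 32 h. Its 24 h groups did not overlap, and it was called lower at 32 h (log2 fold change -1.21 ± 0.18, adjusted p = 0.00083). Hist1h2ab had 24.5 and 20.4 CPM at 8 h, 26.8 and 12.5 at 14 h, 20.04 and 17.9 at 24 h, 7.65 and 6.82 at 32 h in 4HT cells. Hist1h2ab in EtOH cells had 20.6 and 21.6 CPM at 8 h, 23.6 and 18.5 at 14 h, 26.9 and 23.9 at 24 h, 19 and 24.5 at 32 h. The groups were apart at 24 and 32 h, and the 32 h change passed the test (log2 fold change -1.59 ± 0.27, adjusted p = 0.0027).

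The H2B gene Hist1h2bb, which carries the octamer printed above, had 44.7 and 43.9 CPM at 8 h, 51.7 and 26.5 at 14 h, 38.6 and 38.4 at 24 h, 20.9 and 20.5 at 32 h in 4HT cells. Hist1h2bb in EtOH cells had 41.6 and 42.3 CPM at 8 h, 60.2 and 43.2 at 14 h, 59.3 and 60.6 at 24 h, 43.4 and 56.1 at 32 h. Its 4HT libraries were above the EtOH libraries at 8 h, overlapped them at 14 h and were below them at 24 and 32 h (at 32 h log2 fold change -1.27 ± 0.23, adjusted p = 0.0043). Hist1h2bg had 49.5 and 49.8 CPM at 8 h, 53.5 and 28.6 at 14 h, 49.2 and 45.4 at 24 h, 25.3 and 23.7 at 32 h in 4HT cells. Hist1h2bg in EtOH cells had 48.3 and 47.2 CPM at 8 h, 56.9 and 42.6 at 14 h, 65 and 66.4 at 24 h, 44.8 and 60.3 at 32 h. It too was lower at 32 h (log2 fold change -1.10 ± 0.22, adjusted p = 0.0078).

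The H3 gene Hist1h3g had 55.4 and 45.1 CPM at 8 h, 50.7 and 29.9 at 14 h, 58 and 55.3 at 24 h, 30.8 and 30.2 at 32 h in 4HT cells. Hist1h3g in EtOH cells had 48.6 and 46.7 CPM at 8 h, 57 and 44 at 14 h, 83.5 and 85.7 at 24 h, 59.9 and 70.8 at 32 h. Its groups were apart at 24 and 32 h, and it was lower at 32 h (log2 fold change -1.10 ± 0.19, adjusted p = 0.0031). Hist1h3e had 65.3 and 51 CPM at 8 h, 77.8 and 40.2 at 14 h, 88.4 and 77.5 at 24 h, 40.03 and 37.7 at 32 h in 4HT cells. Hist1h3e in EtOH cells had 56.8 and 58 CPM at 8 h, 75.9 and 52.5 at 14 h, 119 and 117 at 24 h, 81.2 and 89.98 at 32 h. Its level in both arms was higher in the 24 h libraries than in the 8 h libraries. At 32 h it was lower in 4HT cells (log2 fold change -1.14 ± 0.24, adjusted p = 0.0091).

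The H4 gene Hist1h4d had 122 and 106 CPM at 8 h, 115 and 72.3 at 14 h, 124 and 122 at 24 h, 66.2 and 62.7 at 32 h in 4HT cells. Hist1h4d in EtOH cells had 110.0 and 112 CPM at 8 h, 133 and 101 at 14 h, 174 and 184 at 24 h, 134 and 138 at 32 h. It was lower at 32 h (log2 fold change -1.07 ± 0.17, adjusted p = 0.0018). Hist1h4b had 40.01 and 35.4 CPM at 8 h, 32.1 and 20.8 at 14 h, 31.5 and 34 at 24 h, 15.7 and 12.4 at 32 h in 4HT cells. Hist1h4b in EtOH cells had 32.1 and 33.3 CPM at 8 h, 36.7 and 31.9 at 14 h, 46 and 39.9 at 24 h, 28.2 and 36.4 at 32 h. At 8 h both of its 4HT libraries were above both EtOH libraries, and at 24 and 32 h both were below (at 32 h log2 fold change -1.21 ± 0.19, adjusted p = 0.0013).

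Some of the smallest p-values at 32 h belonged to genes of lower level. The H4 gene Hist1h4j had 16.8 and 12.9 CPM at 8 h, 12.3 and 8.34 at 14 h, 11 and 10.9 at 24 h, 4.99 and 4.26 at 32 h in 4HT cells. Hist1h4j in EtOH cells had 14.5 and 14.9 CPM at 8 h, 14.4 and 12.7 at 14 h, 14.3 and 13.8 at 24 h, 11.1 and 13 at 32 h. Its groups were apart at 14, 24 and 32 h (log2 fold change -1.39 ± 0.18, adjusted p = 0.00044 at 32 h). The H2B gene Hist1h2bj had 28.4 and 25.5 CPM at 8 h, 21.6 and 14.6 at 14 h, 23 and 22.3 at 24 h, 11.8 and 11 at 32 h in 4HT cells. Hist1h2bj in EtOH cells had 22.1 and 22.7 CPM at 8 h, 26 and 20.5 at 14 h, 30.6 and 27.6 at 24 h, 22.5 and 29.1 at 32 h. Its 4HT libraries lay above the EtOH libraries at 8 h and below them at 24 and 32 h (log2 fold change -1.18 ± 0.18, adjusted p = 0.0010 at 32 h).

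Members outside chromosome 13 behaved unequally. The H3 gene Hist2h3b had 10.3 and 6.94 CPM at 8 h, 9.0 and 5.23 at 14 h, 15.3 and 15.7 at 24 h, 6.82 and 6.86 at 32 h in 4HT cells. Hist2h3b in EtOH cells had 9.83 and 10.2 CPM at 8 h, 9.44 and 8.85 at 14 h, 22.2 and 22.5 at 24 h, 18.8 and 18.2 at 32 h. It was lower at 32 h (log2 fold change -1.44 ± 0.20, adjusted p = 0.00054). The H4 gene Hist2h4 had 63.9 and 50.5 CPM at 8 h, 47.6 and 32.7 at 14 h, 41 and 43.3 at 24 h, 19.95 and 19.2 at 32 h in 4HT cells. Hist2h4 in EtOH cells had 48.9 and 50.6 CPM at 8 h, 55.1 and 47.5 at 14 h, 58.3 and 59.3 at 24 h, 40.1 and 45.5 at 32 h. Its replicates lay close together at 32 h, and it was lower in 4HT cells (log2 fold change -1.13 ± 0.16, adjusted p = 0.00063). The H2A gene Hist2h2ac had 17 and 13.5 CPM at 8 h, 17.8 and 8.78 at 14 h, 16.6 and 16.7 at 24 h, 8.98 and 8.96 at 32 h in 4HT cells. Hist2h2ac in EtOH cells had 14.1 and 16.4 CPM at 8 h, 16.8 and 15.4 at 14 h, 23.6 and 23 at 24 h, 18.3 and 22.5 at 32 h. It was lower at 32 h as well (log2 fold change -1.19 ± 0.23, adjusted p = 0.0064). Hist4h4, the H4 gene of chromosome 6, had 57 and 52.7 CPM at 8 h, 52.4 and 27.1 at 14 h, 47.8 and 51.9 at 24 h, 27.7 and 29.4 at 32 h in 4HT cells. Hist4h4 in EtOH cells had 48.1 and 50.2 CPM at 8 h, 70.8 and 46.4 at 14 h, 65.7 and 62.6 at 24 h, 54.4 and 62.7 at 32 h. It was lower at 32 h by an amount near the median of the Hist1 genes (log2 fold change -1.03 ± 0.24, adjusted p = 0.014).

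The remaining tested members of Hist2 and Hist3 were low, and 3 of 4 were not called at 32 h. The H3 gene Hist2h3c2 had 3.56 and 2.91 CPM at 8 h, 2.73 and 3.07 at 14 h, 2.35 and 2.64 at 24 h, 1.87 and 2.02 at 32 h in 4HT cells. Hist2h3c2 in EtOH cells had 2.82 and 2.47 CPM at 8 h, 2.62 and 2.85 at 14 h, 2.21 and 2.56 at 24 h, 2.16 and 2.28 at 32 h. It was not called at 32 h (log2 fold change -0.19 ± 0.18, adjusted p = 0.63). The H2B gene Hist2h2be had 1.84 and 2.15 CPM at 8 h, 2.25 and 2.31 at 14 h, 1.72 and 1.95 at 24 h, 1.46 and 1.36 at 32 h in 4HT cells. Hist2h2be in EtOH cells had 1.84 and 1.84 CPM at 8 h, 2.39 and 2.88 at 14 h, 1.83 and 2.08 at 24 h, 2.07 and 2.63 at 32 h. It was called lower at 32 h (log2 fold change -0.74 ± 0.20, adjusted p = 0.030). The H2A gene Hist2h2ab had 3.56 and 3.76 CPM at 8 h, 3.78 and 1.5 at 14 h, 3.73 and 3.61 at 24 h, 2.08 and 2.02 at 32 h in 4HT cells. Hist2h2ab in EtOH cells had 3.16 and 2.59 CPM at 8 h, 4.25 and 3.08 at 14 h, 4.31 and 4.03 at 24 h, 3.35 and 3.66 at 32 h. Its groups were apart at 32 h, without a call (log2 fold change -0.78 ± 0.31, adjusted p = 0.14). The H2B gene Hist3h2ba had 0.36 and 0.844 CPM at 8 h, 0.683 and 0.622 at 14 h, 1.01 and 1.15 at 24 h, 0.457 and 0.543 at 32 h in 4HT cells. Hist3h2ba in EtOH cells had 0.427 and 0.418 CPM at 8 h, 1.14 and 0.503 at 14 h, 0.543 and 0.474 at 24 h, 0.505 and 0.714 at 32 h. It stayed near 1 CPM or below (log2 fold change -0.28 ± 0.47, adjusted p = 0.78 at 32 h).

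In all, 9 tested members were not called at 32 h. Besides Hist2h3c2, Hist2h2ab and Hist3h2ba these were the testis-named Hist1h1t, Hist1h2aa and Hist1h2ba and the low Hist1h2ai, Hist1h4m and Hist1h4n. Hist1h2aa had 1.04 and 0.465 CPM in 4HT cells, against 1.56 and 1.7 CPM in EtOH cells (log2 fold change -1.13 ± 0.40, adjusted p = 0.093). Hist1h4n, with 0.083 and 0.271 CPM in 4HT cells, against 0.138 and 0.179 CPM in EtOH cells, was the one tested member with a positive estimate at 32 h, and those groups overlapped (0.18 ± 1.04, adjusted p = 0.95).

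Removal of the trend of fold change over gene length left the direction and 48 calls at 32 h, at a median of -0.79. With size factors from total counts alone the median of all genes was 0.12, and 48 members were called lower at a median of -0.98. Of all genes 1564 were then called higher and 238 lower, against 913 higher and 858 lower with TMM factors. The share of ribosomal RNA reads was 13.9% and 12.5% in the 32 h 4HT libraries, against 14.3% and 28% in the EtOH libraries. Its part in the result was not tested beyond a normalisation without those genes, which left 49 calls. Leaving out either 32 h 4HT library left 29 or 27 calls, with 0.985% or 0.86% of all genes called lower. Within EtOH cells 2 members were called lower at 32 h against 24 h. They were Hist1h2aa (-1.21 ± 0.30, adjusted p = 0.034) and Hist1h1e (-0.69 ± 0.18, adjusted p = 0.041). The median over members was -0.26, and 2.68% of all genes were called lower. Leaving out single libraries gave 0 to 7 calls. Hist1h2aa had 1.56 and 1.7 CPM at 32 h, against 3.63 and 3.93 CPM at 24 h. Hist1h1e had 20.1 and 21.9 CPM at 32 h, against 34.5 and 33.2 CPM at 24 h.

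Lists of genes that act with histone synthesis held fewer calls at 32 h of 4HT, where 4.59% of all genes fell and 4.88% rose. The shares of the chaperone and 3′ processing lists lay near or below those. Of 46 tested DNA replication and S phase entry genes 6 fell and 0 rose, at a median log2 fold change of -0.20. The S phase activator E2f2 fell by 0.56 ± 0.09 (adjusted p = 0.0013), the G1/S cyclin gene Ccne1 by 0.36 ± 0.08 (0.011) and Gins2, of the replicative helicase, by 0.49 ± 0.11 (0.012). Of 35 histone transcription and 3′ processing genes 1 rose, the uridylyltransferase gene Tut7, and 0 fell, at a median of -0.11. Of 29 chaperone and chromatin assembly genes 2 fell, Anp32e (-0.37 ± 0.08) and the CAF-1 subunit gene Chaf1b (-0.27 ± 0.07). Of 11 tested histone genes that are made outside S phase as well, 3 fell: the variants H2afz (-0.58 ± 0.14), H2afx (-0.69 ± 0.17) and the linker histone H1f0 (-0.48 ± 0.14). At 24 h of 4HT no gene of the replication list was called, at a median of -0.01.

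In OCT4-tetOff cells the histone genes were transcribed less after 24 h of DOX. 51 of 57 tested members were called lower and 0 higher, at a median log2 fold change of -1.33. That comparison changed much of the transcriptome, with 36.9% of 17713 genes called and 18.7% lower. At 16 h of DOX the H3 gene Hist1h3h was the 1 member called, and the median over members was -0.15 (background 8.91% lower).

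The summed level was 1669 and 1615 CPM in DOX cells at 16 h, against 1661 and 2101 CPM in H2O cells. At 24 h it was 887 and 526 CPM in DOX cells, against 2011 and 1351 CPM in H2O cells. The replicates of the 24 h groups were spread more widely than those of the 24 and 32 h FOXD3-iKO groups, and the 24 h groups did not overlap. Both DOX libraries lay below both H2O libraries for 53 of 57 members at 24 h (32.8% of all genes) and for 15 at 16 h, with 3 above (34.2% of all genes below). Without the first H2O library of 24 h 28 members were called lower, as were 11.3% of all genes. The stem cell markers summed to 957 to 1058 CPM in the 24 h DOX libraries, against 2695 to 2710 CPM in H2O cells. The 10 feeder markers summed to 9.97 to 12.3 CPM in DOX cells, against 6.18 to 6.64 CPM in H2O cells. The 4 blood and endothelium markers summed to 48.7 to 53.65 CPM in DOX cells, against 116 to 122 CPM in H2O cells. Nearly all of that sum was Pecam1, at 48.01 to 121.8 CPM over the libraries of this line. Cdh5, the next highest, reached at most 0.686 CPM. Of the 2 blood and endothelium markers tested at 24 h, 1 was called higher and 1 lower. The ribosomal RNA share was 21.02% and 18.1% in the DOX libraries, against 27.3% and 25.97% in the H2O libraries, and a normalisation without those genes left 51 calls. The part of the markers in the histone result was not tested.

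Every class fell at 24 h of DOX. H1 had a median log2 fold change of -1.22 (6 of 6 called lower), H2A -1.48 (13 of 13) and H2B -1.08 (11 of 15). H3 had -1.31 (9 of 11) and H4 -1.39 (12 of 12). By cluster 47 of 49 Hist1 genes (-1.38) and 3 of 6 Hist2 genes (-0.93) were called lower. With the length trend removed the median over all members was -0.86.

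The H3 gene Hist1h3h had 6.61 and 6.52 CPM at 16 h and 2.5 and 1.44 CPM at 24 h in DOX cells, against 10.1 and 12 CPM at 16 h and 8.14 and 5.66 CPM at 24 h in H2O cells. Its groups were apart at both times, and it was called lower at 16 h (log2 fold change -0.75 ± 0.22, adjusted p = 0.048) and at 24 h (log2 fold change -1.80 ± 0.26, adjusted p = 0.00072). The 16 h call was lost with size factors from total counts alone and without any single 16 h library. Another H3 gene, Hist1h3c, had 25.9 and 22.8 CPM at 16 h and 10.9 and 7.61 CPM at 24 h in DOX cells, against 29.7 and 34.8 CPM at 16 h and 34.7 and 20.03 CPM at 24 h in H2O cells. It too was apart at both times and lower at 24 h (log2 fold change -1.57 ± 0.25, adjusted p = 0.0014). Hist1h3g had 69.6 and 62.6 CPM at 16 h and 29.9 and 18.1 CPM at 24 h in DOX cells, against 62.5 and 89.9 CPM at 16 h and 68.6 and 50.9 CPM at 24 h in H2O cells. Hist1h3e had 83.4 and 74.9 CPM at 16 h and 43.1 and 27.1 CPM at 24 h in DOX cells, against 75.3 and 111 CPM at 16 h and 89.1 and 61.4 CPM at 24 h in H2O cells. Both overlapped at 16 h and were lower at 24 h (adjusted p = 0.0032 for Hist1h3g and 0.0089 for Hist1h3e).

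Of the linker histones Hist1h1a had 127 and 131 CPM at 16 h and 62.3 and 35.4 CPM at 24 h in DOX cells, against 149 and 162 CPM at 16 h and 189.6 and 118 CPM at 24 h in H2O cells. Hist1h1b had 106 and 105 CPM at 16 h and 56.2 and 34.8 CPM at 24 h in DOX cells, against 136 and 143 CPM at 16 h and 139 and 89.1 CPM at 24 h in H2O cells. Both were without overlap at both times and lower at 24 h (log2 fold change -1.66 ± 0.27 with adjusted p = 0.0014 for Hist1h1a, -1.33 ± 0.24 with adjusted p = 0.0024 for Hist1h1b). Hist1h1e had 46.2 and 51 CPM at 16 h and 32.4 and 21.2 CPM at 24 h in DOX cells, against 46.1 and 46.6 CPM at 16 h and 54.2 and 37.9 CPM at 24 h in H2O cells. It overlapped at 16 h, and its 24 h change was nearer 0 than theirs (log2 fold change -0.78 ± 0.20, adjusted p = 0.015).

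Among core histones the H2A gene Hist1h2ak had 32.3 and 29.7 CPM at 16 h and 14.3 and 10.3 CPM at 24 h in DOX cells, against 30.9 and 39.3 CPM at 16 h and 37 and 25.1 CPM at 24 h in H2O cells. It overlapped at 16 h and was lower at 24 h (log2 fold change -1.33 ± 0.21, adjusted p = 0.0012). Hist1h2ab had 18.9 and 16.2 CPM at 16 h and 8.89 and 3.51 CPM at 24 h in DOX cells, against 22.9 and 26.3 CPM at 16 h and 21.2 and 13.5 CPM at 24 h in H2O cells. It was apart at both times (at 24 h log2 fold change -1.48 ± 0.35, adjusted p = 0.0091). The H2B gene Hist1h2bb had 39.9 and 37.8 CPM at 16 h and 21.3 and 8.79 CPM at 24 h in DOX cells, against 35.9 and 50.4 CPM at 16 h and 47.8 and 30.5 CPM at 24 h in H2O cells. Hist1h2bg had 48.6 and 46.6 CPM at 16 h and 29.1 and 13.6 CPM at 24 h in DOX cells, against 46.7 and 58.1 CPM at 16 h and 52.6 and 36 CPM at 24 h in H2O cells. For both H2B genes the second DOX library of 24 h was far below the first, and both were called lower then (adjusted p = 0.014 for Hist1h2bb and 0.022 for Hist1h2bg).

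The H4 gene Hist1h4d had 107 and 103 CPM at 16 h and 58.2 and 36.6 CPM at 24 h in DOX cells, against 91.3 and 137 CPM at 16 h and 121 and 86.8 CPM at 24 h in H2O cells. Hist1h4b had 22.6 and 24.9 CPM at 16 h and 12 and 6.42 CPM at 24 h in DOX cells, against 25.5 and 30.3 CPM at 16 h and 31.1 and 20.9 CPM at 24 h in H2O cells. Hist1h4d overlapped at 16 h and Hist1h4b did not. At 24 h Hist1h4d was lower (log2 fold change -1.13 ± 0.25, adjusted p = 0.0070), and so was Hist1h4b (log2 fold change -1.49 ± 0.27, adjusted p = 0.0025). On chromosome 3 the H4 gene Hist2h4 had 29.8 and 33 CPM at 16 h and 15.9 and 11 CPM at 24 h in DOX cells, against 34.3 and 38.3 CPM at 16 h and 37.5 and 28 CPM at 24 h in H2O cells. It was apart at both times (at 24 h log2 fold change -1.28 ± 0.19, adjusted p = 0.00075). On chromosome 6 Hist4h4 had 61.4 and 59.3 CPM at 16 h and 33.2 and 14.6 CPM at 24 h in DOX cells, against 44.8 and 67.9 CPM at 16 h and 66.3 and 45.5 CPM at 24 h in H2O cells. Its groups overlapped at 16 h and it was lower at 24 h (log2 fold change -1.23 ± 0.34, adjusted p = 0.019).

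Of the 6 tested members that were not called at 24 h of DOX, 3 lay on chromosome 3. Hist2h3b had 24.2 and 19.7 CPM at 16 h and 11.2 and 7.01 CPM at 24 h in DOX cells, against 16.6 and 26.6 CPM at 16 h and 17.3 and 13.3 CPM at 24 h in H2O cells. It missed the threshold at 24 h (log2 fold change -0.75 ± 0.27, adjusted p = 0.053). Hist2h2be had 3.69 and 2.38 CPM at 16 h and 2.33 and 1.85 CPM at 24 h in DOX cells, against 2.33 and 2.7 CPM at 16 h and 2.25 and 2.43 CPM at 24 h in H2O cells. It overlapped at both times (log2 fold change -0.16 ± 0.25, adjusted p = 0.65 at 24 h). Hist2h3c2 had 4.7 and 3.98 CPM at 16 h and 2.44 and 1.7 CPM at 24 h in DOX cells, against 3.69 and 3.52 CPM at 16 h and 3.71 and 2.34 CPM at 24 h in H2O cells. Its 24 h groups overlapped (log2 fold change -0.56 ± 0.26, adjusted p = 0.12). Hist3h2ba on chromosome 11 had 0.608 and 0.976 CPM at 16 h and 0.48 and 0.258 CPM at 24 h in DOX cells, against 0.292 and 0.385 CPM at 16 h and 0.356 and 0.842 CPM at 24 h in H2O cells. Its 24 h groups overlapped. Hist1h2be and Hist1h2bf of the Hist1 cluster were the other 2 (adjusted p = 0.066 for Hist1h2be and 0.074 for Hist1h2bf). Hist2h2ac had 18.3 and 17.5 CPM at 16 h and 7.86 and 4.73 CPM at 24 h in DOX cells, against 16 and 22.3 CPM at 16 h and 19.7 and 11.5 CPM at 24 h in H2O cells. Hist2h2ab had 5.51 and 4.3 CPM at 16 h and 2.27 and 1.22 CPM at 24 h in DOX cells, against 4.52 and 6.38 CPM at 16 h and 4.94 and 2.57 CPM at 24 h in H2O cells. These 2 H2A genes of chromosome 3 were called lower at 24 h (adjusted p = 0.0073 for Hist2h2ac and 0.040 for Hist2h2ab).

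Replication genes fell as well in this line, in which 18.7% of all genes fell at 24 h and 18.1% rose. At 24 h of DOX 40 of 46 DNA replication and S phase entry genes fell and 0 rose, at a median log2 fold change of -0.65. E2f2 (-1.09 ± 0.08), the replication initiation gene Mcm10 (-1.12 ± 0.10), the thymidine kinase gene Tk1 (-0.93 ± 0.10), E2f1 (-0.76 ± 0.08), Uhrf1 (-0.93 ± 0.10) and the polymerase delta gene Pold1 (-0.83 ± 0.10) had the smallest p. Of the 35 histone transcription and 3′ processing genes 9 fell and 1 rose, at a median of -0.105. Over all genes 36.9% were called, so that these counts do not set this list apart. Slbp, whose product binds the stem-loop, fell (-0.51 ± 0.10, adjusted p = 0.0044), as did the CCAAT factor gene Nfya (-0.77 ± 0.10, adjusted p = 0.00033). Of 29 chaperone genes 13 fell and 3 rose. Of the 11 histone genes made outside S phase as well, 4 fell and 2 rose, H2afz falling by 1.03 ± 0.13 and the macroH2A genes H2afy2 (0.91 ± 0.09) and H2afy (0.72 ± 0.12) rising.

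The 24 h changes of both lines were compared in 1 fit, as the log2 fold change of 4HT against EtOH minus that of DOX against H2O. The difference had a median of 0.94 over 57 members, and 11 were called higher and 0 lower. Over all genes 9.07% were called higher. A positive value here means that the histone gene was lowered less by 24 h of 4HT than by 24 h of DOX. The largest called were Hist1h4n (3.29 ± 0.80, adjusted p = 0.020) and Hist1h2bn (2.15 ± 0.42, adjusted p = 0.0073). Hist1h2bn had 0.892 and 0.332 CPM in DOX cells, against 4.07 and 2.85 CPM in H2O cells, and 5.53 and 4.97 CPM in 4HT cells, against 7.17 and 5.97 CPM in EtOH cells. Hist1h4n had 0.686 and 0.332 CPM in DOX cells, against 5.46 and 5.19 CPM in H2O cells, and 0.126 and 0.382 CPM in 4HT cells, against 0.17 and 0.426 CPM in EtOH cells, so that it was close to the level of 3 counts per library in 1 line. The H2B gene Hist1h2bm had 0.789 and 0.332 CPM in DOX cells, against 2.33 and 1.59 CPM in H2O cells, and 18.9 and 18.6 CPM in 4HT cells, against 26.1 and 25 CPM in EtOH cells (1.36 ± 0.37, adjusted p = 0.033). Its level differed widely between the lines, which are counted in separate tables. The H2A gene Hist1h2an had 1.41 and 0.886 CPM in DOX cells, against 3.48 and 2.57 CPM in H2O cells, and 13 and 13.3 CPM in 4HT cells, against 15.8 and 17.9 CPM in EtOH cells (adjusted p = 0.036). The H4 gene Hist1h4k had 9.2 and 5.39 CPM in DOX cells, against 19.8 and 17.5 CPM in H2O cells, and 21.4 and 23.2 CPM in 4HT cells, against 29.8 and 30.2 CPM in EtOH cells (adjusted p = 0.039). All 5 genes were without overlap between the groups in DOX and H2O cells. The number of calls ranged from 1 to 48 when single libraries were left out, with 48 without the first 24 h DOX library. For the replication list 31 of 46 were called higher in the same difference.

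The octamer promoters of H2A and H2B were set beside the other promoter windows of these 2 classes, since OCT4 binds the octamer. Hist1h2bc and Hist2h2be had no window and were left out. At 24 h of DOX the tested genes with the octamer had a median log2 fold change of -1.49 (11 of 11 called lower) and those without it -1.21 (12 of 15 called lower). At 32 h of 4HT the medians were -1.20 (9 of 11) and -1.13 (12 of 15). Over the release they were -0.63 (9 of 11) and -0.45 (12 of 19). Hist1h2bb had the octamer, and its change at 24 h of DOX was given above. These are counts and medians of small lists, with no test between them.

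In synchronized FOXD3-iKO cells the question was how transcription ran through S phase after the thymidine block, with and without FOXD3. The histone genes rose together in the first hour, and their summed level was back near its start an hour later, while the shares of the classes differed by hour. At 1 h against 0 h 46 of 62 members rose and 0 fell in 4HT cells, at a median log2 fold change of 1.43, where 3.19% of 17739 genes rose. In EtOH cells 58 of 62 rose and 0 fell, at a median of 1.61, where 10.4% of genes rose. The ribosomal RNA share in EtOH cells was 4.92% and 3.41% at 0 h, and 14.7% and 22.8% at 1 h. In 4HT cells it was 19.7% and 15.6% at 0 h, and 17.99% and 16.8% at 1 h. Each arm had 1 shallow library at 0 h, of 8093039 counts in EtOH cells and 7953841 in 4HT cells. The part of share and depth in the 1 h rise was not tested separately. The arms share no libraries, and the test of the difference of their courses called 0 members and 0 genes. At an unadjusted p under 0.05 it had 0 members and 883 of 17739 genes.

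The summed level of the members was 691 and 593 at 0 h, 1653 and 1659 at 1 h, 848 and 616 at 2 h, 602 and 478 at 3 h, 577 and 527 at 4 h, 620.1 and 511 at 5 h after release in 4HT cells, all in CPM. In EtOH cells it was 1046 and 642 at 0 h, 2149 and 2450.3 at 1 h, 1118 and 794 at 2 h, 859 and 895 at 3 h, 848 and 564 at 4 h, 909 and 865 at 5 h. Both libraries of 1 h stood above the 10 others of their arm. Ratios of the 1 h mean to the 0 h mean were 2.58 in 4HT cells and 2.72 in EtOH cells. For single genes, both 1 h libraries lay above the 10 others of the arm for 58 of 62 members in 4HT cells and 61 of 62 in EtOH cells. The share of all genes with that pattern was not computed, so these counts have no background beside them.

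**Figure D4:**
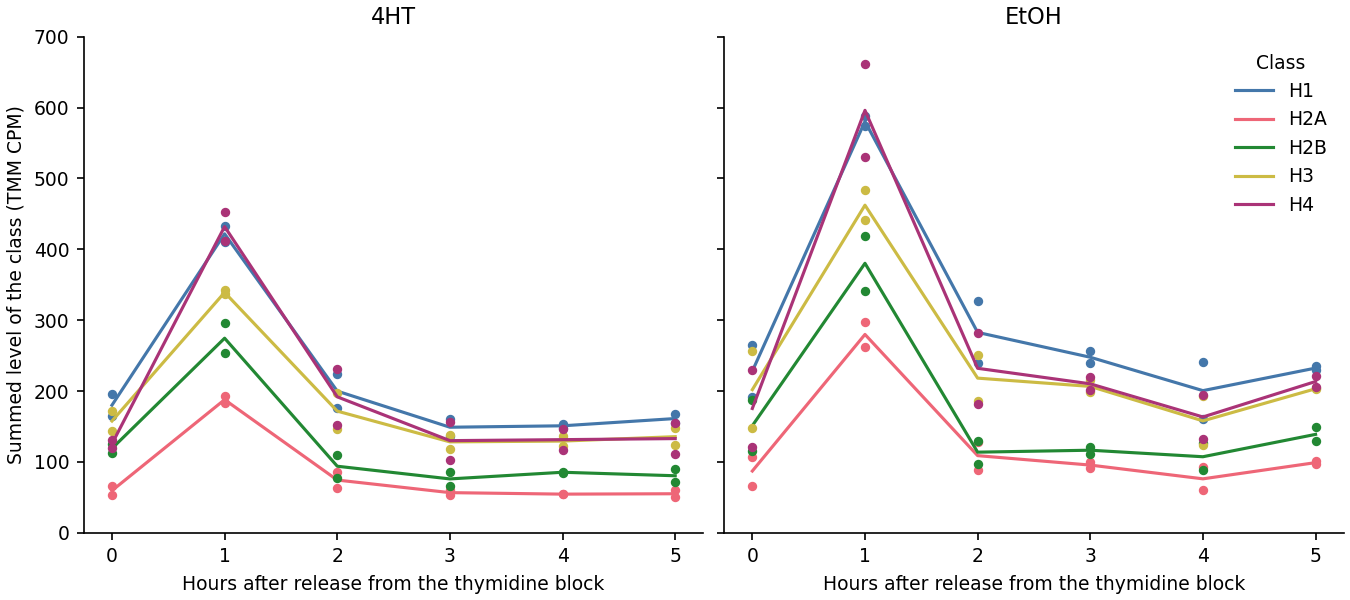
Summed TMM-scaled CPM of each histone class in every synchronized library by hours after release, 4HT and EtOH, with lines through the group means. All 5 classes peak at 1 h in both arms, and each class mean is lower in 4HT cells than in EtOH cells at every hour.

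H4 genes had the largest rise at 1 h and H3 genes the smallest. In 4HT cells the medians at 1 h against 0 h were 1.29 for H1 (5 of 6 called), 1.46 for H2A (11 of 16), 1.196 for H2B (12 of 16), 0.88 for H3 (6 of 11) and 1.93 for H4 (12 of 13). In EtOH cells they were 1.38 for H1 (6 of 6), 1.66 for H2A (14 of 16), 1.45 for H2B (15 of 16), 1.07 for H3 (11 of 11) and 2.01 for H4 (12 of 13). The differences between classes were not tested.

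The composition of histone transcription differed by hour. H4 held 19.6%, 26.1%, 26.01%, 23.8%, 23.7% and 23.4% of the summed level at 0 to 5 h in 4HT cells (means of 2 libraries), against 20.4%, 25.9%, 24.1%, 23.97%, 23.2% and 24.1% in EtOH cells. H2B held 18.6%, 16.6%, 12.8%, 14.1%, 15.5% and 14.2% in 4HT cells, against 17.9%, 16.5%, 11.97%, 13.3%, 15.3% and 15.6% in EtOH cells. The H2B share was lowest at 2 h in both arms, with libraries at 12.65% to 12.98% in 4HT cells and 11.6% to 12.3% in EtOH cells. H3 was lowest at 1 h, at 20.5% in 4HT cells and 20.1% in EtOH cells.

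**Figure D5:**
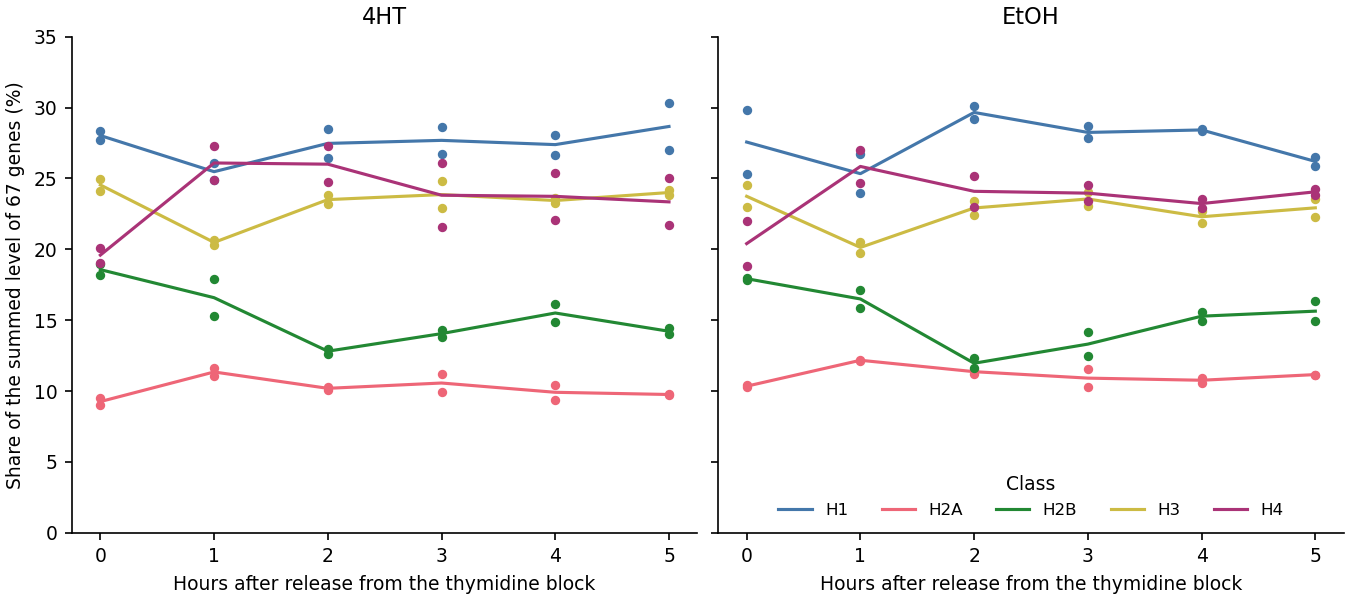
Share of the summed histone level held by each class (percent) in synchronized cells by hours after release, 4HT and EtOH. The H2B share is lowest at 2 h (12.8% in 4HT cells, 11.97% in EtOH cells), and the H4 share is higher from 1 h onward than at 0 h.

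After the peak the number of members called lower than at 1 h differed by hour, and the timing of the decline was not tested between genes. Against 1 h, 17, 49, 54 and 54 of 62 members were lower at 2, 3, 4 and 5 h in 4HT cells (0.169%, 0.958%, 2.39% and 4.03% of all genes). In EtOH cells 34, 48, 58 and 50 were lower (0.316%, 0.795%, 3.43% and 3.2% of all genes). At 2 h against 1 h in EtOH cells 12 of 16 H2B genes were already called lower, at a median of -1.84, and 4 of 6 H1 genes, at a median of -1.03. Against 0 h fewer members differed at 2 to 5 h. In 4HT cells 3, 1, 1 and 1 were higher and 1, 3, 2 and 1 lower, where 9.48%, 10.4%, 14.5% and 20.2% of all genes were called. In EtOH cells 6, 3, 1 and 3 were higher and 1, 1, 4 and 0 lower, where 15.8%, 21.9%, 18.4% and 21.4% of all genes were called. These shares of members were below those of all genes.

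In the values of single genes below, pairs stand for libraries 1 and 2 at 0, 1, 2, 3, 4 and 5 h, in that order. A linker histone kept a raised level. Hist1h1e had 7.32 and 3.87, 29.1 and 30.2, 22.3 and 16.6, 14.7 and 11, 12.8 and 11.2, 14.6 and 10.9 CPM in 4HT cells. Hist1h1e in EtOH cells had 8.11 and 5.62, 36.3 and 44.1, 30.5 and 19.4, 16.5 and 20.2, 18.5 and 12.6, 15.8 and 15.8 CPM. Every library of 1 h and later lay above both 0 h libraries of its arm. It rose at 1 h in 4HT cells (log2 fold change 2.36 ± 0.30, adjusted p = 0.00038) and in EtOH cells (log2 fold change 2.58 ± 0.29, adjusted p = 7.4e-05), and was called higher than at 0 h at every later hour in both arms. The H2B gene Hist1h2bp went the other way. Hist1h2bp had 5.7 and 5.41, 6.92 and 5.23, 2.52 and 2.18, 2.6 and 2.21, 2.33 and 2.72, 2.88 and 2.35 CPM in 4HT cells. Hist1h2bp in EtOH cells had 7.03 and 4.82, 8.64 and 8.73, 3.46 and 3.04, 3.98 and 3.6, 3.93 and 2.28, 4.72 and 4.83 CPM. It did not pass at 1 h (adjusted p = 0.83 in 4HT cells and 0.064 in EtOH cells). It was called lower than at 0 h at 2, 3, 4 and 5 h in 4HT cells and at 2 and 4 h in EtOH cells.

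The most abundant linker histones rose by less than the median of the set. Hist1h1a had 53.4 and 42.4, 96.4 and 97.6, 47.8 and 37.5, 37.4 and 33.2, 39.1 and 36.3, 44 and 40.8 CPM in 4HT cells. Hist1h1a in EtOH cells had 67.6 and 49, 131 and 130.004, 71.6 and 54.7, 60.05 and 61.8, 60.3 and 40.9, 66.7 and 55.4 CPM. It rose at 1 h in 4HT cells (log2 fold change 1.01 ± 0.19, adjusted p = 0.0055) and in EtOH cells (log2 fold change 1.16 ± 0.19, adjusted p = 0.0013). Hist1h1b had 50.4 and 49.4, 115 and 127, 56.2 and 41.1, 35.6 and 30.03, 35.6 and 32.2, 35.9 and 35.8 CPM in 4HT cells. Hist1h1b in EtOH cells had 77.4 and 51.6, 161 and 173, 79.2 and 57.9, 54.6 and 61.6, 56.4 and 34.5, 53 and 51.9 CPM. It rose in 4HT cells (log2 fold change 1.28 ± 0.22, adjusted p = 0.0030) and in EtOH cells (log2 fold change 1.38 ± 0.22, adjusted p = 0.0010). At 2 h both genes were close to their 0 h values.

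The H2A gene Hist1h2ak had 12.1 and 6.31, 37.8 and 35.2, 18.7 and 12.2, 10.6 and 8.94, 9.74 and 8.38, 10.5 and 7.68 CPM in 4HT cells. Hist1h2ak in EtOH cells had 15.8 and 9.82, 43.4 and 46.9, 16.3 and 12.2, 15.7 and 12.7, 12.6 and 9.58, 15.2 and 12.9 CPM. It rose at 1 h in 4HT cells (log2 fold change 1.95 ± 0.29, adjusted p = 0.0010) and in EtOH cells (log2 fold change 1.84 ± 0.27, adjusted p = 0.00061). Hist1h2ab had 10.6 and 7.09, 24.1 and 22.6, 8.02 and 7.9, 7.05 and 6.13, 7.21 and 6.92, 8.15 and 7.32 CPM in 4HT cells. Hist1h2ab in EtOH cells had 15.6 and 8.52, 37.4 and 35.9, 15.9 and 10.7, 11.6 and 10.6, 12.8 and 7.29, 12.4 and 12.6 CPM. Its 1 h libraries stood above the others of both arms. Another H2A gene, Hist1h2ae, had 5.28 and 6.96, 21.6 and 20.6, 8.11 and 5.4, 4.45 and 5.12, 5.68 and 4.82, 4.96 and 3.8 CPM in 4HT cells. Hist1h2ae in EtOH cells had 10.8 and 6.3, 24.8 and 30.2, 9.98 and 7.96, 7.65 and 7.3, 6.7 and 5.16, 8.17 and 6.98 CPM. It was among the genes with the smallest p at 1 h in 4HT cells (log2 fold change 1.80 ± 0.25, adjusted p = 0.00069).

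The H2B gene Hist1h2bb had 15.5 and 12.2, 32.4 and 22.8, 11.4 and 6.86, 9.72 and 6.73, 9.44 and 9.01, 10.8 and 7.87 CPM in 4HT cells. Hist1h2bb in EtOH cells had 25.7 and 15.7, 40.3 and 45.2, 15.4 and 8.64, 13.7 and 15.3, 17.2 and 10.2, 16.4 and 17.9 CPM. At 2 h its libraries were below both 0 h libraries of the arm. Its change at 1 h passed the test in EtOH cells (log2 fold change 1.06 ± 0.31, adjusted p = 0.026) but not in 4HT cells (log2 fold change 0.99 ± 0.32, adjusted p = 0.082), a difference that was not called in the test of the courses. Hist1h2bg had 25.4 and 24, 52 and 43.4, 18.7 and 15.5, 14.8 and 13.7, 13.5 and 16, 18.9 and 12.3 CPM in 4HT cells. Hist1h2bg in EtOH cells had 38 and 30.9, 69.4 and 70.7, 26.5 and 19.7, 21.8 and 22.5, 25.4 and 15.3, 28.2 and 22.6 CPM. All its libraries of 2 h and later were below both 0 h libraries of the arm. The low H2B gene Hist1h2bh had 2.04 and 2.45, 12.8 and 11.6, 3.88 and 3.64, 2.33 and 2.01, 2.44 and 2.2, 2.48 and 1.54 CPM in 4HT cells. Hist1h2bh in EtOH cells had 2.49 and 0.988, 11.4 and 19.4, 4.46 and 3.35, 3.73 and 3.15, 3.87 and 2.21, 3.81 and 2.95 CPM. It rose steeply in 4HT cells (log2 fold change 2.46 ± 0.36, adjusted p = 0.0010) and in EtOH cells (log2 fold change 3.26 ± 0.36, adjusted p = 5.6e-05). The testis-named H2B gene Hist1h2ba had 5.47 and 6.75 CPM at 1 h in EtOH cells, against 0.649 and 0.556 CPM at 0 h (log2 fold change 3.34 ± 0.40, adjusted p = 0.00012).

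The H3 gene Hist1h3g had 21.5 and 17.5, 49.2 and 48.9, 30.2 and 21.4, 19.1 and 15.7, 15.7 and 14.8, 18.3 and 15.6 CPM in 4HT cells. Hist1h3g in EtOH cells had 33 and 18.7, 63.8 and 73.5, 35.2 and 29.1, 27.4 and 25.9, 24.3 and 14.9, 25.2 and 22.9 CPM. It rose at 1 h in 4HT cells (log2 fold change 1.32 ± 0.25, adjusted p = 0.0049) and in EtOH cells (log2 fold change 1.42 ± 0.24, adjusted p = 0.0015). Hist1h3e had 32.1 and 29, 56.6 and 55.6, 33.6 and 28.2, 27.2 and 23.8, 26.3 and 23.5, 27 and 23.1 CPM in 4HT cells. Hist1h3e in EtOH cells had 49.5 and 25.7, 71.9 and 80.2, 44.2 and 34.3, 36.5 and 39.4, 33.9 and 22.9, 33.1 and 35.6 CPM. Its EtOH libraries of 0 h lay far apart, and its rise passed in both arms (adjusted p = 0.036 in 4HT cells and 0.0079 in EtOH cells). On chromosome 3 the H3 gene Hist2h3b had 3.32 and 2.96, 11.9 and 13.5, 7.39 and 5.51, 4.65 and 3.21, 3.86 and 3.46, 3.44 and 3.35 CPM in 4HT cells. Hist2h3b in EtOH cells had 3.35 and 2.22, 14.4 and 17, 6.99 and 5.03, 6.04 and 4.49, 4.76 and 3.61, 5.81 and 3.09 CPM. It rose more than the other H3 genes named here (in EtOH cells log2 fold change 2.53 ± 0.29, adjusted p = 7.6e-05). Hist2h3c2 had 4.0 and 2.96, 5.19 and 4.8, 3.33 and 2.81, 2.81 and 2.21, 3.15 and 2.93, 2.48 and 2.44 CPM in 4HT cells. Hist2h3c2 in EtOH cells had 5.3 and 3.4, 7.0 and 9.51, 3.86 and 3.04, 5.04 and 3.82, 4.34 and 3.09, 4.99 and 4.29 CPM. It passed the test at 1 h in EtOH cells (log2 fold change 0.96 ± 0.24, adjusted p = 0.012) but not in 4HT cells (log2 fold change 0.50 ± 0.27, adjusted p = 0.33).

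The H4 gene Hist1h4d had 30.4 and 26.9, 93.4 and 101, 54.3 and 37.5, 36.5 and 26.3, 32.9 and 28.7, 39.8 and 25.4 CPM in 4HT cells. Hist1h4d in EtOH cells had 55.8 and 31.2, 132 and 154, 72.1 and 52, 50.5 and 55.3, 45.7 and 30.5, 50.9 and 50.3 CPM. Hist1h4b had 5.62 and 6.57, 18.9 and 24.4, 11.9 and 6.55, 7.05 and 6.23, 5.79 and 5.76, 6.96 and 6.24 CPM in 4HT cells. Hist1h4b in EtOH cells had 9.19 and 4.82, 28.5 and 36.6, 12.1 and 8.59, 11.3 and 7.7, 8.64 and 6.11, 12.1 and 8.86 CPM. Both rose at 1 h, with log2 fold changes in 4HT cells of 1.76 ± 0.28 for Hist1h4d and 1.83 ± 0.33 for Hist1h4b. In EtOH cells these were 1.72 ± 0.28 for Hist1h4d and 2.26 ± 0.31 for Hist1h4b. Hist1h4i had 16.7 and 17.1, 44.6 and 48.6, 15.2 and 12.3, 10.7 and 9.74, 11.1 and 12.8, 11.4 and 11.3 CPM in 4HT cells. Hist1h4i in EtOH cells had 23.4 and 17.6, 61.7 and 64.7, 22.6 and 13.9, 13.8 and 16.7, 15.4 and 12.4, 16.9 and 18.1 CPM. Its 1 h replicates lay close together, and its adjusted p was 0.00050 in 4HT cells and 9.1e-05 in EtOH cells. On chromosome 3 Hist2h4 had 9.11 and 8.51, 30.4 and 35, 17.4 and 10.4, 11.1 and 8.03, 8.43 and 7.02, 10.6 and 7.87 CPM in 4HT cells. Hist2h4 in EtOH cells had 13.5 and 6.11, 39.3 and 49.1, 18.3 and 12.7, 12.4 and 14.9, 13.1 and 8.47, 15.1 and 13.1 CPM. The lone Hist4h4 had 5.28 and 3.87, 22.4 and 19.2, 12 and 8.52, 9.72 and 5.22, 9.54 and 5.03, 11.4 and 6.69 CPM in 4HT cells. Hist4h4 in EtOH cells had 8.54 and 4.38, 24.9 and 36.4, 14.2 and 9.64, 10.6 and 13, 10.4 and 9.28, 14.5 and 15.2 CPM. Both peaked at 1 h like the H4 genes of chromosome 13, and in EtOH cells Hist4h4 was still called higher at 5 h than at 0 h.

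The remaining members outside chromosome 13 were low in synchronized cells. The H2A gene Hist2h2ac had 4.94 and 2.83, 12.3 and 14.8, 7.03 and 4.37, 4.86 and 3.52, 3.35 and 5.87, 4.72 and 3.16 CPM in 4HT cells. Hist2h2ac in EtOH cells had 6.05 and 4.01, 21.7 and 22, 10.4 and 6.44, 8.28 and 8.37, 7.38 and 4.05, 7.99 and 7.32 CPM. Its peak was at 1 h. Hist2h2ab had 0.596 and 0.515, 0.988 and 1.28, 1.17 and 1.14, 0.547 and 0.904, 0.508 and 1.26, 1.36 and 1.08 CPM in 4HT cells. Hist2h2ab in EtOH cells had 1.41 and 0.432, 1.22 and 1.06, 1.06 and 0.786, 1.18 and 0.899, 1.31 and 0.958, 0.908 and 1.27 CPM. Its highest library was at 5 h in 4HT cells and at 0 h in EtOH cells. Hist2h2be had 1.11 and 1.68, 3.21 and 5.33, 0.901 and 0.935, 1.03 and 0.502, 0.508 and 0.629, 0.879 and 1.36 CPM in 4HT cells. Hist2h2be in EtOH cells had 1.19 and 0.432, 2.62 and 3.83, 1.13 and 0.419, 0.871 and 0.955, 1.15 and 0.368, 1.27 and 1.41 CPM. Hist3h2ba had 0.255 and 0.129, 1.32 and 3.52, 0.451 and 0.312, 0.137 and 0, 0.305 and 0, 0.32 and 0 CPM in 4HT cells. Hist3h2ba in EtOH cells had 0.216 and 0.124, 1.4 and 2.13, 0.20 and 0.367, 0.373 and 0.112, 0.523 and 0.516, 0.635 and 0.403 CPM. Both rose at 1 h in 4HT cells (adjusted p = 0.049 for Hist2h2be and 0.015 for Hist3h2ba) and in EtOH cells (adjusted p = 0.0099 for Hist2h2be and 0.0087 for Hist3h2ba). A count of 3 corresponds to 0.167 to 0.377 CPM in these libraries, a floor that covers counting error only and is above several of the values of Hist3h2ba.

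A few further genes had among the smallest p-values in the falls after 1 h. The H2A gene Hist1h2ag had 4.51 and 4.64, 14.5 and 10.5, 6.22 and 4.68, 2.6 and 2.31, 3.76 and 2.62, 3.52 and 3.71 CPM in 4HT cells. Hist1h2ag in EtOH cells had 8.0 and 5.0, 18.9 and 21.7, 6.86 and 5.55, 4.48 and 6.57, 5.03 and 3.54, 6.35 and 5.91 CPM. Hist1h2an had 5.53 and 5.15, 11.2 and 12.1, 4.15 and 3.22, 3.56 and 3.92, 3.25 and 3.04, 3.76 and 2.44 CPM in 4HT cells. Hist1h2an in EtOH cells had 8.97 and 5.68, 17.6 and 21.5, 8.12 and 5.03, 5.17 and 5.95, 4.45 and 3.54, 4.72 and 6.58 CPM. Both H2A genes rose at 1 h in 4HT cells (adjusted p = 0.0038 for Hist1h2ag and 0.019 for Hist1h2an) and in EtOH cells (adjusted p = 0.00047 for Hist1h2ag and 0.0014 for Hist1h2an). The H3 gene Hist1h3d had 15.1 and 13.8, 34.4 and 32, 13.5 and 9.46, 9.44 and 8.44, 9.03 and 8.49, 9.27 and 9.13 CPM in 4HT cells. Hist1h3d in EtOH cells had 25.3 and 15.4, 40.2 and 44.6, 17.2 and 13, 11.8 and 15.4, 13.9 and 8.47, 14.7 and 15 CPM. In 4HT cells all its libraries of 2 h and later lay below both 0 h libraries. The H2B gene Hist1h2bc had 19.2 and 13.8, 39.1 and 40.9, 16 and 9.66, 11.5 and 9.84, 13.8 and 14.9, 15.3 and 15.7 CPM in 4HT cells. Hist1h2bc in EtOH cells had 22.4 and 13, 34.7 and 48.6, 11.8 and 10.7, 15.7 and 12.9, 18 and 14.1, 22.7 and 20.6 CPM. The H2B gene Hist1h2be had 7.06 and 7.99, 16.7 and 14, 7.12 and 4.05, 5.27 and 4.32, 6.39 and 6.5, 6.88 and 5.88 CPM in 4HT cells. Hist1h2be in EtOH cells had 11.5 and 7.78, 22.5 and 29.4, 9.52 and 6.29, 6.53 and 7.41, 8.9 and 7.88, 10.4 and 10.4 CPM. At 2 h against 1 h both H2B genes were lower in 4HT cells (adjusted p = 0.015 for Hist1h2bc and 0.024 for Hist1h2be) and in EtOH cells (adjusted p = 0.0030 for Hist1h2bc and 0.0030 for Hist1h2be).

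The testis-named H2A gene Hist1h2aa had 0.511 and 0.387, 3.46 and 3.2, 2.7 and 1.56, 1.57 and 1.0, 0.711 and 0.943, 0.64 and 1.18 CPM in 4HT cells. Hist1h2aa in EtOH cells had 0.757 and 0.556, 5.23 and 5.04, 2.46 and 2.46, 1.68 and 0.842, 1.57 and 1.18, 0.998 and 1.75 CPM. Its level was low and its rise steep (log2 fold change 2.83 ± 0.45 in 4HT cells and 3.0017 ± 0.37 in EtOH cells). Hist1h2bj, the H2B gene named above, had 4.68 and 6.7, 13 and 12.5, 4.6 and 3.33, 4.38 and 3.31, 4.37 and 3.56, 3.36 and 2.62 CPM in 4HT cells. Hist1h2bj in EtOH cells had 10.5 and 5.5, 14 and 21.8, 5.26 and 3.14, 4.67 and 3.2, 5.6 and 4.49, 7.44 and 5.1 CPM. At 3 h in EtOH cells it was called lower than at 0 h. The H2A gene Hist2h2aa2 of chromosome 3 had 1.11 and 0.515, 1.89 and 2.67, 0.631 and 0.831, 0.616 and 0.402, 0.203 and 0.314, 0.40 and 0.542 CPM in 4HT cells. Hist2h2aa2 in EtOH cells had 0.865 and 0.741, 2.31 and 2.48, 0.732 and 0.262, 0.933 and 0.505, 0.89 and 0.663, 1.45 and 0.537 CPM. Its 4HT course passed the test, with its lowest libraries at 4 h.

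Of the histone genes made outside S phase as well, 6 changed over the EtOH course and 2 over the 4HT course, led by the centromeric H3 gene Cenpa in both. The replication-list genes with the smallest p over the 4HT course were Orc6, Pcna and Fen1, whose largest log2 difference from 0 h was negative (-0.65, -0.70 and -0.83), while that of Ccne1 was positive in both arms (0.32 in 4HT cells, 0.53 in EtOH cells). For Slbp it was -0.81 in 4HT cells and -0.48 in EtOH cells, and its course passed the test in both arms. Over the course as a whole 53 members changed in 4HT cells (15.4% of all genes) and 58 in EtOH cells (19.4%).

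Over the release 4HT cells transcribed the histone genes less than EtOH cells. With all 6 hours in 1 fit, 48 of 62 members were called lower in 4HT cells and 0 higher, at a median log2 fold change of -0.47. Over all genes 37% were called and 18.4% lower. This fit took the 12 libraries of each arm as independent. The labels do not say whether the hours of 1 replicate number came from 1 culture, in which case its p-values would be too small. At single hours 0, 0, 0, 4, 0 and 1 members were called lower at 0 to 5 h. The shares of all genes called lower were 0.0564%, 0.581%, 0.265%, 1.21%, 0.152% and 1.23%. Both 4HT libraries lay below both EtOH libraries for 17, 51, 19, 49, 20 and 55 of 62 members at 0 to 5 h, against 26.9%, 27.4%, 28%, 24.8%, 20.6% and 28% of all genes. At 0 and 2 h the counts of members were thus near the shares of all genes. The summed levels of the arms overlapped at 0, 2 and 4 h and were apart at 1, 3 and 5 h. Removal of the length trend left 31 calls, at a median of -0.29. With size factors from total counts alone 791 genes were called higher and 7415 lower, against 3301 higher and 3265 lower with TMM factors. The median of all genes was then -0.21, and that of the members was -0.69 with 54 called lower.

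By class the medians over the release were -0.50 for H1 (5 of 6 called lower), -0.58 for H2A (12 of 16), -0.41 for H2B (9 of 16), -0.47 for H3 (10 of 11) and -0.47 for H4 (12 of 13). The H2A gene Hist1h2af, with the smallest p, had 7.32 and 8.89, 21.5 and 23.1, 13 and 13.6, 11.8 and 11.5, 8.02 and 10.8, 8.0 and 8.32 CPM in 4HT cells. Hist1h2af in EtOH cells had 12.5 and 10.7, 34.4 and 44.7, 32.8 and 20.7, 24.3 and 19.9, 19.6 and 12.2, 19.7 and 19.2 CPM. At every hour each 4HT library lay below both EtOH libraries of its hour, and the log2 fold change over the release was -0.89 ± 0.10 (SE, adjusted p = 1e-06). In cycling cells the same gene had 6.44 and 5.39 CPM in 4HT cells, against 11.5 and 12.1 CPM in EtOH cells at 32 h. The octamer gene Hist1h2ac had 4.17 and 3.87, 18.8 and 16.3, 5.68 and 2.81, 5.27 and 2.91, 5.48 and 4.3, 4.8 and 3.89 CPM in 4HT cells. Hist1h2ac in EtOH cells had 9.52 and 6.11, 23.4 and 28.5, 8.85 and 6.91, 7.72 and 7.98, 8.17 and 5.3, 9.71 and 8.93 CPM. Its groups overlapped at 4 h and were apart at the other 5 hours (log2 fold change -0.79 ± 0.12, adjusted p = 4.2e-05).

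Linker histones were lower as well. Hist1h1c had 36.4 and 30.9, 66.5 and 68.7, 40.3 and 32.4, 33.3 and 29.5, 31 and 32.8, 37.9 and 34 CPM in 4HT cells. Hist1h1c in EtOH cells had 46.1 and 37.5, 93.4 and 96.6, 62.1 and 44.4, 48.3 and 54.8, 50.7 and 36.7, 48.7 and 55 CPM. Its log2 fold change over the release was -0.51 ± 0.07 (adjusted p = 1.3e-05). Hist1h1d had 48 and 37.6, 103 and 108, 57.2 and 47.4, 39.5 and 32.8, 35.5 and 35.5, 34.5 and 32.5 CPM in 4HT cells. Hist1h1d in EtOH cells had 65.3 and 47.3, 150.1 and 143, 82.1 and 62.1, 59.2 and 57.4, 54.9 and 34.8, 51.2 and 50.7 CPM. Over the release it was lower by a similar amount (log2 fold change -0.49 ± 0.08, adjusted p = 5.1e-05). Hist1h1a, whose values are given above, was lower as well (log2 fold change -0.50 ± 0.08, adjusted p = 5.3e-05). The 4 members called at 3 h were Hist1h1a, Hist1h1c, Hist1h2af and the H2A gene Hist1h2ag, and Hist1h2af was the 1 member called at 5 h. The members not called over the release numbered 14. Among them were Hist2h3b (log2 fold change -0.17 ± 0.11, adjusted p = 0.25), Hist2h2be (log2 fold change 0.15 ± 0.21, adjusted p = 0.61) and Hist1h2bh (log2 fold change -0.31 ± 0.15, adjusted p = 0.11).

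The other lists were split over the release, where 18.4% of all genes fell and 18.6% rose. The share called was 37% of all genes and 17 of 46, 9 of 35 and 12 of 29 in the first 3 lists, so that these counts do not set the lists apart. Of 46 replication genes 11 fell and 6 rose in 4HT cells, at a median of -0.04, with Pcna (-0.37 ± 0.05) and Gins2 (-0.55 ± 0.08) lower and Rpa1 (0.26 ± 0.04) and Prim2 (0.55 ± 0.10) higher. Of the 35 histone transcription and 3′ processing genes 6 rose and 3 fell, with Gon4l (0.40 ± 0.06) higher and Lsm11 (-0.28 ± 0.06), of the U7 particle that trims histone transcripts, lower. Of 29 chaperone genes 10 rose and 2 fell, the H3.3 chaperone gene Hira (0.37 ± 0.05) having the smallest p. The macroH2A genes H2afy (0.52 ± 0.05) and H2afy2 (0.38 ± 0.05) rose, and the variant H2afj fell (-0.28 ± 0.07).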

How the data were processed

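Newly made RNA of mouse embryonic stem cells was measured in 48 libraries. The authors deposited raw counts per gene in 3 tables. Per the submitters' processing notes reads were handled with STAR and featureCounts on mm10. Their versions, and the settings for strand and multiply aligned reads, are not given in the sources at hand. Total counts ran from 7953841 to 30406124 per library. A floor of 3 counts was 0.0987 to 0.377 CPM and covers counting error only.

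Groups followed the sample titles. Symbols were matched by gene ID without its version. The members and lists were chosen with earlier results of these data known. All genes of a table went into 1 fit by edgeR 4.0.16 under R 4.3.3 (filterByExpr with a minimum count of 10, TMM factors, 1 mean per group, quasi-likelihood test). P-values were adjusted over all tested genes by the Benjamini-Hochberg method and called under 0.05. SEs are the size of the log2 fold change over the square root of F. A course was tested by 1 F test over its hours. The tests were tried on simulated counts with known changes.

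Values in every library are given for the 2 members per class with the highest mean CPM per kb in cycling FOXD3-iKO cells, for tested members outside chromosome 13, for up to 5 members per contrast and direction with the smallest p, and for called members against the median's sign. Of the lists up to 6 called genes per contrast are named. Alternatives were RLE factors, total counts, TMM without 2 ribosomal RNA genes, no count filter, removal of a gene length trend (lowess span 0.3, prior count 1), a replicate block, DESeq2 1.42.0, only the groups compared, and leaving out single libraries. Python 3.11.15 with pandas 2.3.3, numpy 2.4.6 and matplotlib 3.10.9 was used for summaries and plots.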

Additional observations from a re-analysis of the deposited data

Results flagged for a closer look

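The log2 fold change of 4HT against EtOH minus that of DOX against H2O at 24 h differed from 0 for 11 histone genes by edgeR's quasi-likelihood test of the difference itself, each with a positive value. The H2B gene Hist1h2bn had 2.15 and the H4 gene Hist1h4n 3.29. The H2B genes Hist1h2bm and Hist1h2bj had 1.36 and 0.97. The H2A genes Hist1h2an and Hist1h2ah had 1.05 and 1.18. The H4 genes Hist1h4k, Hist1h4a and Hist2h4 had 0.93, 1.27 and 0.81. The H3 genes Hist1h3i and Hist1h3h had 1.01 and 1.29. Leaving out single libraries gave 1 to 48 calls, with 1 without the first EtOH or the second 4HT library of 24 h, 34 without the second H2O library and 48 without the first DOX library of 24 h. The libraries of the 2 lines came in separate tables, and the line and the table cannot be told apart in this difference.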

How the results depend on the processing

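Replicates were 2 per group, so that counts of calls near a threshold moved with single settings, and the cause was not tested for any of them. Of 5957 values of single members under an alternative, 5732 stayed on the same side of the threshold, 115 passed it newly and 110 lost it. The counts that follow show only how far calls of members moved, since most come without the share of all genes under that setting. Without the low-count filter the calls numbered 1 at 14 h of 4HT, 27 at 24 h, 17 for 32 h minus 24 h, 16 for EtOH cells at 32 h against 24 h, 7 at 16 h of DOX and 47 for 4HT minus DOX. With the length trend removed they numbered 6 at 24 h of 4HT, 6 for EtOH cells at 32 h against 24 h, 25 for 4HT minus DOX and 31 over the release. With only the groups compared in the fit they numbered 28 at 24 h of 4HT, 32 at 32 h, 0 for EtOH cells at 32 h against 24 h and 11 at 16 h of DOX. That setting was not run for 4HT minus DOX, over the release or for the difference of the courses. With total counts alone they numbered 0 at 16 h of DOX, where the median of all genes moved to 0.15 and 2392 genes were called higher and 1018 lower, against 1407 higher and 1579 lower with TMM factors. For 4HT minus DOX total counts gave 3 calls and DESeq2 18. Leaving out single libraries gave 0 to 0 calls at 8 h and 14 h of 4HT, and 0 to 1 at 24 h (1 without the second 4HT library of 14 h). It gave 27 to 50 at 32 h and 0 to 10 for 32 h minus 24 h (10 without the first EtOH library of 32 h). For EtOH cells at 32 h against 24 h it gave 0 to 7 (7 without the second EtOH library of 32 h). It gave 0 to 1 at 16 h of DOX, 28 to 55 at 24 h (28 without the first H2O library), 1 to 48 for 4HT minus DOX and 44 to 51 over the release. The courses kept 44 to 54 calls in 4HT cells and 46 to 60 in EtOH cells, and their difference 0 to 0.

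The replicate numbers were not taken to pair the samples. Deviations of samples with the same number correlated at -0.097 to 0.19 in cycling FOXD3-iKO cells, at -0.113 and 0.418 in OCT4-tetOff cells, and at 0.007 to 0.229 in synchronized cells. Between groups that were not compared the ranges were -0.407 to 0.261, -0.117 to 0.141 and -0.236 to 0.565. The 0.418 belonged to the 24 h DOX and H2O groups and lay above the range of its line. Whether those samples were paired is not given in the labels. With the replicate block 22 members were called for 4HT minus DOX, and the other counts stayed within 1.5 times. A crossed pairing of the 16 h DOX samples, chosen after seeing the data, gave 1 call at 16 h. Counts were low for Hist1h4m, at 0 to 22 in a cycling FOXD3-iKO library and 0 or 1 in an OCT4-tetOff library.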
